A study of Mus musculus with 4 samples.

Results

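Thalamus spots marked as plaque were compared with unmarked thalamus spots in 2 brain sections that carry the 5xFAD transgenes. Visium arrays were used, on which each barcoded spot captures RNA from the small patch of tissue lying over it, often several cells. Spots were taken by the deposited labels: those with the region label Thalamus and the plaque mark (137 spots) were set against thalamus spots with neither the plaque mark nor the neighbour mark (451 spots). These 588 spots are part of 10549 spots in the 4 sections. The 5xFAD-Dp16 section held 72 plaque, 126 neighbour and 256 unmarked thalamus spots, and the 5xFAD section held 65, 126 and 195. No spot of the Dp16 section (450 thalamus spots) or the Wild-type section (555 thalamus spots) was marked as plaque.

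Each genotype was represented by 1 section, so there is no replicate of any genotype and no test was made. Intervals are at 95% and cover counting error alone. All 4 mice were males aged 9 months, and hemispheres were cut at 10 µm between bregma 1 and -2 mm. The 5xFAD-Dp16 mouse carried both the 5xFAD transgenes and the Dp16 duplication, the 5xFAD mouse the transgenes alone, the Dp16 mouse the duplication alone, and the Wild-type mouse was C57BL/6J. 5xFAD mice carry human amyloid precursor protein and presenilin transgenes with familial Alzheimer's disease mutations, driven by the neuronal Thy1 promoter. In Dp16 mice a long stretch of mouse chromosome 16, whose genes have their human counterparts on chromosome 21, is duplicated. The sources used here do not say how plaque and neighbour spots were marked.

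Amyloid plaques draw in microglia, the resident macrophages of the brain, which extend processes over the deposit and change their gene expression. Those cells sense lipids and amyloid through the receptor TREM2 and its adaptor TYROBP, and raise genes for lysosomal proteases, lipid handling and secreted factors. Astrocytes near plaques often become reactive and make more GFAP. The thalamus relays sensory and motor signals to the cortex through glutamatergic neurons, and its nuclei differ in the genes they express.

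The promoters of 3 microglial genes that were higher in plaque spots are shown because many microglial genes are bound by PU.1, a transcription factor that binds purine-rich DNA. Each sequence runs 5′ to 3′ on the gene's strand from 250 bases before the start to 50 after it, from RefSeq on GRCm38.p6, and capitals mark GAGGAA or GGAAGT, or their reverse complements.
Cst7 (chr2:150570165-150570464, plus strand): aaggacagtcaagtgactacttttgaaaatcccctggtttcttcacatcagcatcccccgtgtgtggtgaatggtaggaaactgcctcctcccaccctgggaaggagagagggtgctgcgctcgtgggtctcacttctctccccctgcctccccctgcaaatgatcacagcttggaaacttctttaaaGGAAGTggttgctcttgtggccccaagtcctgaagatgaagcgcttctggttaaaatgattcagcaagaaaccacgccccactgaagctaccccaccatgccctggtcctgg
Trem2 (chr17:48346151-48346450, plus strand): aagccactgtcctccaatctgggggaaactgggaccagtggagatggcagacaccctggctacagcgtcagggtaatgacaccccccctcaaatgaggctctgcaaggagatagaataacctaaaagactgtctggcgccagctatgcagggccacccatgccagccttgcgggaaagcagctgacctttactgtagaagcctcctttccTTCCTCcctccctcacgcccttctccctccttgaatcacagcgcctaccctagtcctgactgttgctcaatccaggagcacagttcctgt
Cd68 (chr11:69666121-69666420, minus strand): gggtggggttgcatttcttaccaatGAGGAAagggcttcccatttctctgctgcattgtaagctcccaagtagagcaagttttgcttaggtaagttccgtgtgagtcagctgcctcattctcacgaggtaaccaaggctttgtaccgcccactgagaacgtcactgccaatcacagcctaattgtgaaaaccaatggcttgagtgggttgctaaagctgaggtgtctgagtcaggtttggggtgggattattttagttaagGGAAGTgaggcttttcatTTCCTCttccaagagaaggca
On either strand, GAGGAA was in 28.3% and GGAAGT in 23.8% of 32851 promoters of this length, and either was in 43.4%. Of the 129 genes at least 1.5-fold higher in plaque spots of both sections, 100 matched a promoter by symbol and 52 of them (52%) held either motif, against 2557 of 5171 (49.4%) among all genes compared. A match is a description of the letters and not evidence of binding.

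The region label was checked against thalamic marker genes. Of 24 markers, 19 were at least 2-fold higher in thalamus spots than in the rest of the section in both transgenic sections. Tcf7l2, a transcription factor of thalamic projection neurons, had 375 CPM in thalamus spots against 11.8 CPM in the rest of the 5xFAD-Dp16 section, and 394 against 18.6 CPM in 5xFAD. CPM is a gene's UMIs (counted RNA molecules) divided by all UMIs of the spots of one kind and multiplied by 1000000. Prkcd, a protein kinase C of the relay nuclei, had 612 against 19.3 CPM in 5xFAD-Dp16 and 766 against 29.1 CPM in 5xFAD. The sums rest on 748387 UMIs in plaque and 2670303 in unmarked spots of 5xFAD-Dp16, and on 732324 and 1895213 in 5xFAD. Medians per spot were 10818.5 UMIs in plaque and 10227 in unmarked spots of 5xFAD-Dp16, and 10642 and 8949 in 5xFAD. The median percent of mitochondrial UMIs was 12.1 in plaque and 14.0 in unmarked spots of 5xFAD-Dp16, and 11.2 and 13.7 in 5xFAD, and its part in the results was not tested. The 2 transgenic sections share 2271 barcodes (346 in thalamus), which mark positions of the array and not cells.

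Plaque and unmarked spots were spread differently over the authors' expression clusters. Cluster 17, led by Ctxn3, Cbln1 and Lypd6b, held 22.2% of plaque and 6.25% of unmarked spots in 5xFAD-Dp16, and 32.3% and 6.67% in 5xFAD. Cluster 4, led by Pth2, Ngb and Fxyd6, ran the other way, with 5.56% of plaque and 36.3% of unmarked spots in 5xFAD-Dp16, and 0% and 18.5% in 5xFAD (0 of 65 plaque spots; a count of 0 has an exact binomial interval of up to 5.52%). Cluster 11, led by the microglial genes Cst7, Tyrobp and Trem2, held 12.5% and 1.95% in 5xFAD-Dp16, and 9.23% and 4.62% in 5xFAD. Cluster 1, led by Prkcd and Tnnt1, held 50% and 33.2% in 5xFAD-Dp16, and 47.7% and 47.2% in 5xFAD. Of the spots without the transgenes, cluster 1 held 34.9% in Dp16 and 80.5% in Wild-type, cluster 17 held 8.67% and 0%, and cluster 4 held 28.9% and 1.26%, so the control sections also differ from each other. A second value, called matched, is therefore given for many results, in which unmarked spots are weighted to the cluster mix of the plaque spots. The clusters were themselves made from expression, so the weighting can also take off part of a difference between plaque and unmarked spots.

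**Figure D1:**
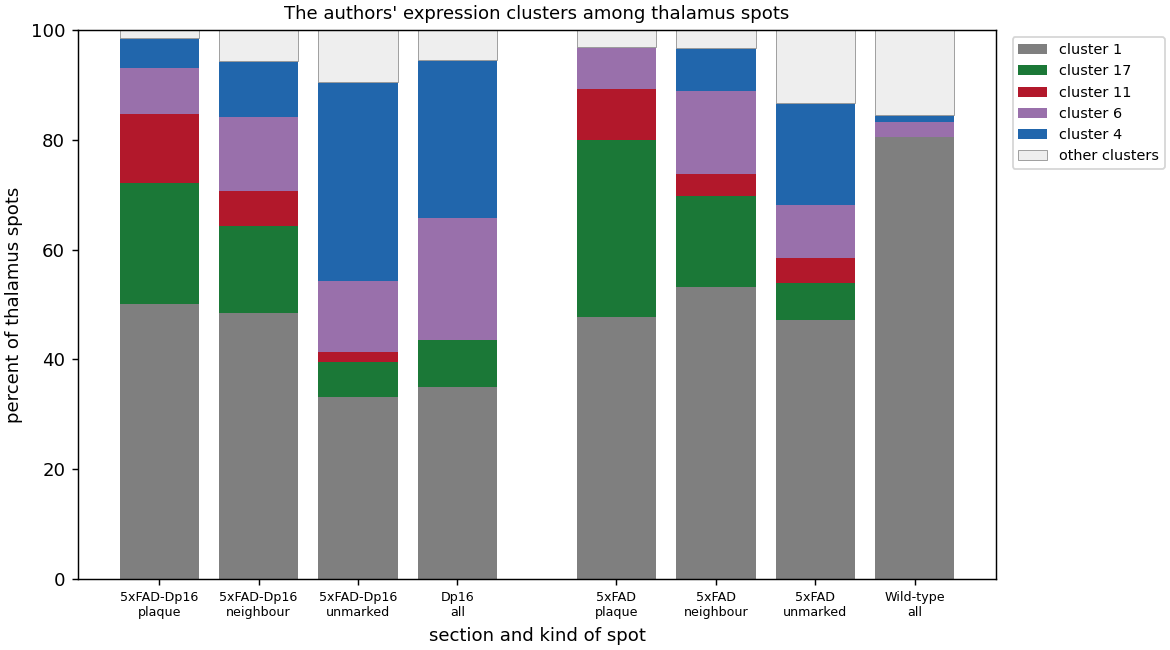
Percent of thalamus spots (vertical axis) in each of the authors' expression clusters, by section and kind of spot. Cluster 17 takes 22.2% and 32.3% of plaque spots in 5xFAD-Dp16 and 5xFAD, and cluster 4 takes 36.3% and 18.5% of unmarked spots.

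The comparison took in 6467 genes averaging 20 CPM or more over the 4 sums. A sparse gene could pass this minimum through its plaque or its unmarked level alone, which favours large ratios among such genes. Of these, 475 (7.34%) were at least 1.5-fold higher and 389 (6.02%) at least 1.5-fold lower in plaque than in unmarked spots of 5xFAD-Dp16. In 5xFAD 356 (5.5%) were higher and 503 (7.78%) lower. Both sections placed 129 genes (1.99%) higher and 124 (1.92%) lower, and 26 (0.402%) passed the fold in opposite directions. The 129 genes are 27.2% of those higher in 5xFAD-Dp16 and 36.2% of those higher in 5xFAD, and the 124 are 31.9% and 24.7% of those lower. Across genes, which are not independent, the Pearson r between the log2 ratios of the 2 sections was 0.44 (0.27 matched by cluster) and Spearman's rho 0.31 (0.23 matched). With matching, 63 of the 129 higher genes were still past the fold in both sections and 125 kept their sign. Of the 43 among them that belong to immune or glial lists 28 were still past it, and of the 86 outside those lists 35 were. Of the 124 lower genes 73 were still past the fold and 116 kept their sign.

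**Figure D2:**
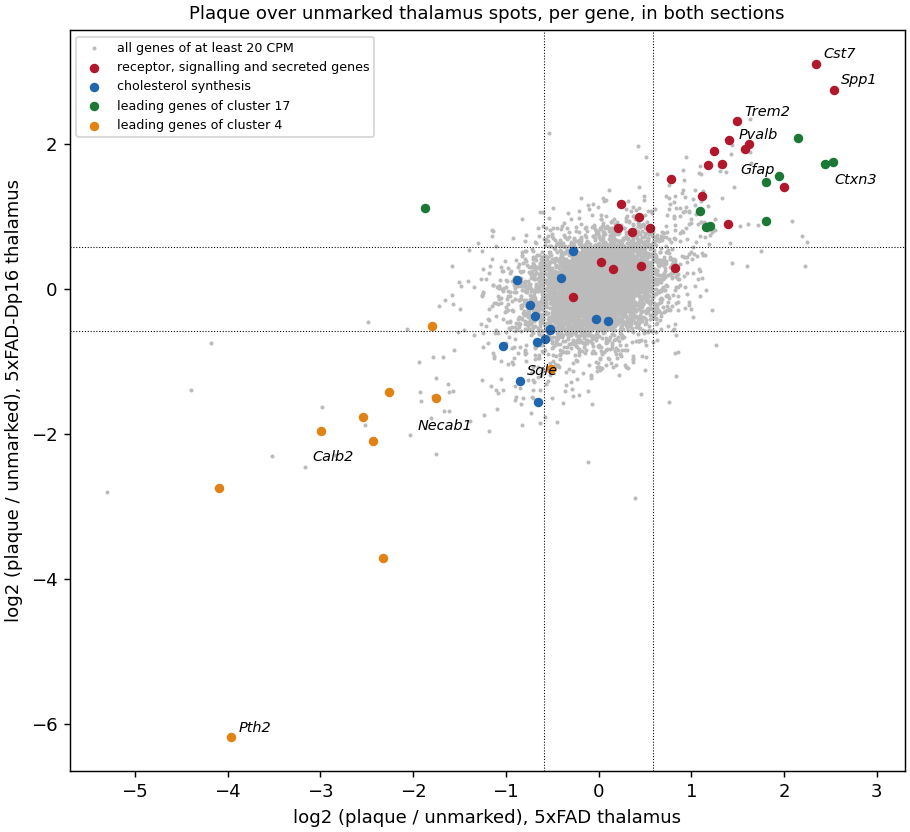
Log2 ratio of plaque over unmarked thalamus spots in 5xFAD-Dp16 (vertical axis) and 5xFAD (horizontal axis), 1 point per gene, with dotted lines at 1.5-fold. Cst7 and Spp1 lie at the upper right with leading genes of cluster 17 such as Ctxn3, and leading genes of cluster 4 such as Pth2 lie at the lower left.

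Genes of microglial receptors and their signalling were higher in plaque spots. Of 30 listed genes 13 passed the expression minimum, with 11 higher in 5xFAD-Dp16, 7 in 5xFAD, 7 in both and none lower by 1.5-fold, and list medians of 1.28 and 1.11 (0.82 and 0.93 matched by cluster), where the medians of all genes were 0.041 and 0.018. Trem2, the lipid-sensing receptor, had 307 CPM in plaque, 178 in neighbour and 61.8 in unmarked spots of 5xFAD-Dp16, against 24.8 in Dp16. In 5xFAD it had 307, 177 and 109 CPM, against 23.2 in Wild-type. The plaque level was thus the same in both sections, and the unmarked level was lower in 5xFAD-Dp16. The log2 ratio of plaque over unmarked was 2.31 (2.02 to 2.61) in 5xFAD-Dp16 and 1.49 (1.21 to 1.77) in 5xFAD, and 1.26 and 1.09 when matched.

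Tyrobp, the signalling adaptor of TREM2, had 866 CPM in plaque, 537 in neighbour and 216 in unmarked spots of 5xFAD-Dp16 (log2 2.00, 1.84 to 2.16), and 978, 554 and 318 CPM in 5xFAD (1.62, 1.46 to 1.78). The control sections had 88.7 CPM in Dp16 and 88.4 CPM in Wild-type, below every kind of spot in the transgenic sections. Matched by cluster, the log2 ratio of Tyrobp was 1.24 in both transgenic sections. The shared Fc receptor chain Fcer1g had 267 CPM in plaque and 80.5 in unmarked spots of 5xFAD-Dp16, and 253 and 100 CPM in 5xFAD. Cd52, a small surface glycoprotein, had log2 ratios of 2.06 and 1.40, and Ly86, a partner of Toll-like receptor homologues, 1.90 and 1.25. The integrin Itgax was sparse, with 14.7 CPM (11 UMIs) in plaque and 1.5 in unmarked spots of 5xFAD-Dp16, and 16.4 CPM (12 UMIs) and 5.8 in 5xFAD, and it had no UMI in either control thalamus. Csf1r, the receptor microglia need to survive, had the smaller ratios of 0.99 and 0.43. In spots that mix cells, more cells of a type and more RNA per cell cannot be told apart.

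**Figure D3:**
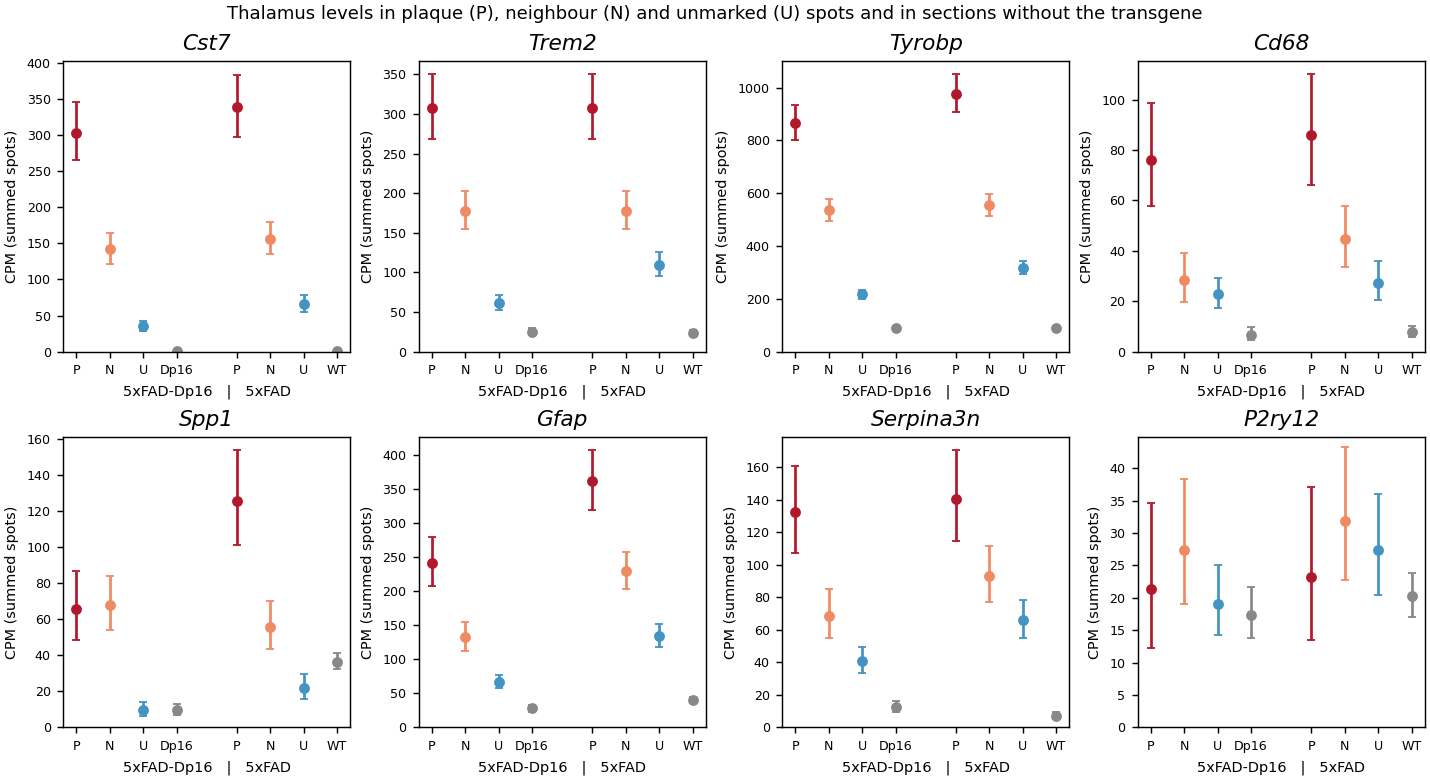
CPM of 8 genes (vertical axis, from 0) in plaque (P), neighbour (N) and unmarked (U) thalamus spots of 5xFAD-Dp16 and 5xFAD, with all thalamus spots of Dp16 or Wild-type (WT) to the right of each; bars are 95% Poisson intervals of the summed count. Levels of Cst7, Trem2, Tyrobp and Gfap step down from P to N to U in both sections, Spp1 does not between P and N in 5xFAD-Dp16, and P2ry12 shows no such order.

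Secreted and plaque-associated microglial genes were also higher. Of 22 listed genes 21 were in the matrix and 10 passed the minimum, with 7 higher in 5xFAD-Dp16, 7 in 5xFAD, 6 in both and none lower. The minimum takes in plaque spots, so these counts and the medians favour sparse members that are high there. List medians were 1.15 and 1.11, and 0.47 and 0.87 when matched. Cst7 encodes cystatin F, which inhibits lysosomal cysteine proteases. It had 303 CPM in plaque, 142 in neighbour and 35.2 in unmarked spots of 5xFAD-Dp16, against 0.212 in Dp16. In 5xFAD it had 339, 157 and 66.5 CPM, against 0.428 in Wild-type, which is 3 UMIs in the whole Wild-type thalamus. Its log2 ratios were 3.11 (2.75 to 3.47) and 2.35 (2.03 to 2.67), 1.69 and 1.90 when matched, and 2.57 and 1.39 within cluster 1 alone. Cst7 was thus all but absent from the control thalamus, and in both transgenic sections its level stepped down from plaque to neighbour to unmarked spots.

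Spp1, the secreted phosphoprotein osteopontin, had 65.5 CPM in plaque, 67.8 in neighbour and 9.74 in unmarked spots of 5xFAD-Dp16 (log2 2.75, 2.04 to 3.49). In 5xFAD it had 126, 55.7 and 21.6 CPM (2.54, 1.99 to 3.11). It was concentrated in few spots: 15 of 72 plaque spots in 5xFAD-Dp16 and 22 of 65 in 5xFAD had a UMI, and the spot with most held 30.6% and 28.3% of the plaque UMIs. Without that spot the log2 ratios were 2.23 and 2.09. The Wild-type thalamus, at 36.5 CPM, lay above the unmarked spots of 5xFAD, while Dp16 was at 9.55 CPM.

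Lyz2, the lysozyme of phagocytes, had 190 CPM in plaque and 49.8 in unmarked spots of 5xFAD-Dp16 (log2 1.93), and 175 and 58.6 in 5xFAD (1.58). Igf1, insulin-like growth factor 1, had 30.7 and 11.6 CPM in 5xFAD-Dp16 (1.40), and 69.6 and 17.4 CPM in 5xFAD (2.00). Wfdc17, a small secreted protein of myeloid cells, had log2 ratios of 2.34 and 1.63. Timp2, a metalloproteinase inhibitor made by many brain cells, was on this list and had -0.12 and -0.28. Chemokines were sparser, with 4 of 11 above the minimum and medians of 1.04 and 0.41 (0.44 and 0.12 matched, 0.39 and -0.16 within cluster 1). Ccl6 had 57.5 CPM in plaque and 18.7 in unmarked spots of 5xFAD-Dp16, and 90.1 and 34.8 in 5xFAD, and Ccl3 had log2 ratios of 1.503 and 0.81, while the neuronal chemokine Cx3cl1 had -0.01 and 0.01.

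In single spots thinned to 5300 UMIs, the 51 receptor, signalling and secreted genes summed to between 3 and 151 UMIs in plaque spots of 5xFAD-Dp16 (median 17), 0 and 151 in neighbour spots (median 9) and 1 and 96 in unmarked spots (median 7). In 5xFAD they ran from 3 to 92 in plaque (median 14), from 3 to 130 in neighbour (median 10.5) and from 1 to 102 in unmarked spots (median 8). Control spots had a median of 5 and reached 24 in Dp16 and 25 in Wild-type. The kinds of spot overlapped widely: 19 plaque spots (29.2%) in 5xFAD-Dp16 and 16 (25%) in 5xFAD exceeded every spot of their control thalamus, as did 8 (3.42%) and 20 (10.8%) unmarked spots. Conversely 15 (23.1%) and 14 (21.9%) plaque spots were at or below the unmarked median. Within cluster 1 the medians were 16 in plaque and 8 in unmarked spots of 5xFAD-Dp16, and 14 and 9 in 5xFAD. The plaque spots of cluster 11 had medians of 96 and 80.5.

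**Figure D4:**
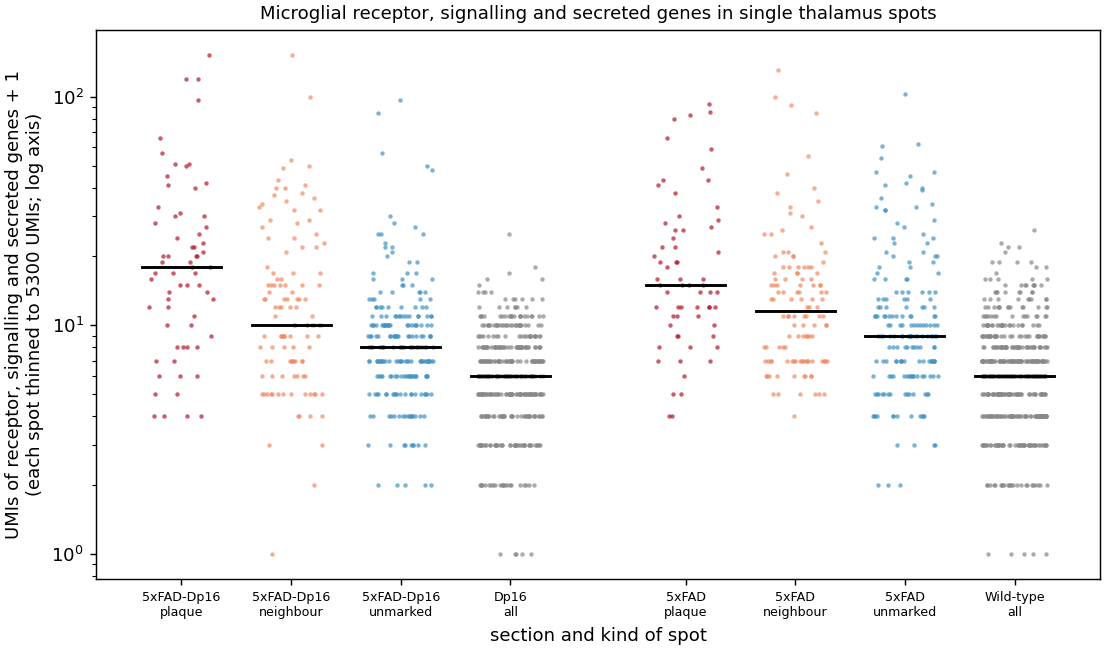
Summed UMIs of receptor, signalling and secreted genes plus 1 (log axis) in single thalamus spots thinned to 5300 UMIs, by section and kind of spot; black bars are medians. Medians of plaque spots are 17 in 5xFAD-Dp16 and 14 in 5xFAD, against 5 in both control sections, and plaque, neighbour and unmarked spots overlap widely.

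A UMI of Cst7 was found in 53.8% of plaque, 29.3% of neighbour and 9.40% of unmarked spots of 5xFAD-Dp16 after thinning, against 0.231% in Dp16. In 5xFAD the shares were 50%, 34.2% and 18.4%, against 0.185% in Wild-type. The exact binomial intervals of plaque spots (41.03 to 66.3% and 37.2 to 62.8%) did not reach those of unmarked spots (5.99 to 13.9% and 13.1 to 24.7%). Without thinning the plaque shares were 72.2% and 64.6% and the unmarked shares 13.7% and 21.5%. Trem2 was found in 63.1%, 43.1% and 18.4% of the 3 kinds in 5xFAD-Dp16 and in 57.8%, 48.3% and 33.0% in 5xFAD, against 11.8% in Dp16 and 11.99% in Wild-type. Intervals take spots as independent, although neighbouring spots share tissue.

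Many lysosomal genes were higher, by smaller ratios. Of 30 listed genes 26 passed the minimum, 16 were higher in 5xFAD-Dp16, 12 in 5xFAD and 11 in both, and the list medians were 0.72 and 0.55 (0.56 and 0.51 matched). Ctsd, the aspartic protease cathepsin D, had 1915 CPM in plaque, 1161 in neighbour and 629 in unmarked spots of 5xFAD-Dp16 (log2 1.61, 1.503 to 1.71), and 1714, 1183 and 811 CPM in 5xFAD (1.08, 0.97 to 1.19). Matched by cluster it had 0.89 and 0.78. Cd68, a membrane glycoprotein of phagocyte lysosomes, had 76.2 and 22.8 CPM in plaque and unmarked spots of 5xFAD-Dp16, and 86.0 and 27.4 CPM in 5xFAD. The cathepsin genes Ctss (1.37 and 0.91) and Ctsz (1.64 and 0.91) were higher in both sections. Psap, the precursor of the saposins, had 0.23 and 0.00. Gaa, the lysosomal acid alpha-glucosidase, was the only listed member lower in both, at -0.78 and -0.63.

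Complement and antigen presentation genes were also higher. Of 11 complement genes 6 passed the minimum, all 6 were higher in 5xFAD-Dp16, 4 in 5xFAD and 4 in both, with medians of 1.42 and 1.03 (0.76 and 0.76 matched). C1qa, a subunit of the initiating C1q complex, had 496 CPM in plaque, 300.2 in neighbour and 154 in unmarked spots of 5xFAD-Dp16 (log2 1.69, 1.48 to 1.90), and 464, 323 and 189 CPM in 5xFAD (1.30, 1.08 to 1.52). C4b, which has a near-identical copy in the genome, had 1.12 (0.61 to 1.61) and 0.44 (-0.07 to 0.94). Cd59a, an inhibitor of the membrane attack complex, had 1.75 and 2.53, but within cluster 1 it turned to -1.40 and -0.39 and it is among the leading genes of cluster 17. Of 13 class I genes 5 passed the minimum and 4 were higher in both sections, with medians of 1.10 and 0.91. B2m, the shared small subunit of class I complexes, had 624 CPM in plaque and 242 in unmarked spots of 5xFAD-Dp16 (1.37), and 511 and 249 CPM in 5xFAD (1.04).

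Interferon-induced genes differed more between the sections. Only 4 of 20 listed genes passed the minimum, and all 4 were higher in 5xFAD-Dp16 and 1 (Ifi27) in 5xFAD. The medians were 1.33 and 0.38 (1.21 and -0.11 matched). In cluster 1 alone they were 1.42 and 0.97, closer together. Ifi27l2a, an interferon-induced gene, had 112 CPM in plaque, 71.0 in neighbour and 28.5 in unmarked spots of 5xFAD-Dp16 (log2 1.98, 1.51 to 2.45), against 11.5 CPM in Dp16. In 5xFAD it had 17.8, 26.3 and 13.2 CPM (0.43, -0.66 to 1.45), against 2.57 in Wild-type. The ratio in 5xFAD-Dp16 was higher by 1.55 (0.49 to 2.62) on the log2 scale, from 13 plaque UMIs in 5xFAD. Class II genes had no member above the minimum, with summed levels of 56.1 CPM in plaque and 40.8 in unmarked spots of 5xFAD-Dp16, and 97.0 and 32.2 in 5xFAD.

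Markers of microglia in the healthy brain did not move together. Of 18 listed genes 17 were in the matrix and 9 passed the minimum, 6 were higher in both sections, and medians were 0.75 and 0.63. P2ry12, the purinergic receptor used as a marker of homeostatic microglia, had 21.4 CPM in plaque, 27.4 in neighbour and 19.1 in unmarked spots of 5xFAD-Dp16 (log2 0.16, -0.75 to 1.00), and 23.2, 31.8 and 27.4 CPM in 5xFAD (-0.24, -1.12 to 0.57). Tmem119, another such marker, had 0.80 (-0.03 to 1.59) and -0.21 (-1.35 to 0.81). The listed genes that were higher were Fcrls (1.82 and 0.94), Gpr34 (1.22 and 1.11), Olfml3 (1.13 and 0.95), Selplg (0.75 and 1.20), Cx3cr1 (0.72 and 0.62) and Tgfbr2 (1.59 and 0.63). None of the measured members was lower by 1.5-fold in either section. Rgs10, also on the list, had -0.61 and -0.56 after the plaque spot with its highest count was left out. That spot held 5.10% of its plaque UMIs in 5xFAD-Dp16 and 7.69% in 5xFAD. When matched, Rgs10 had 0.32 and 0.03. The intervals of P2ry12 and Tmem119 included 0 in both sections, so a change in either was not detectable at this depth.

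**Figure D5:**
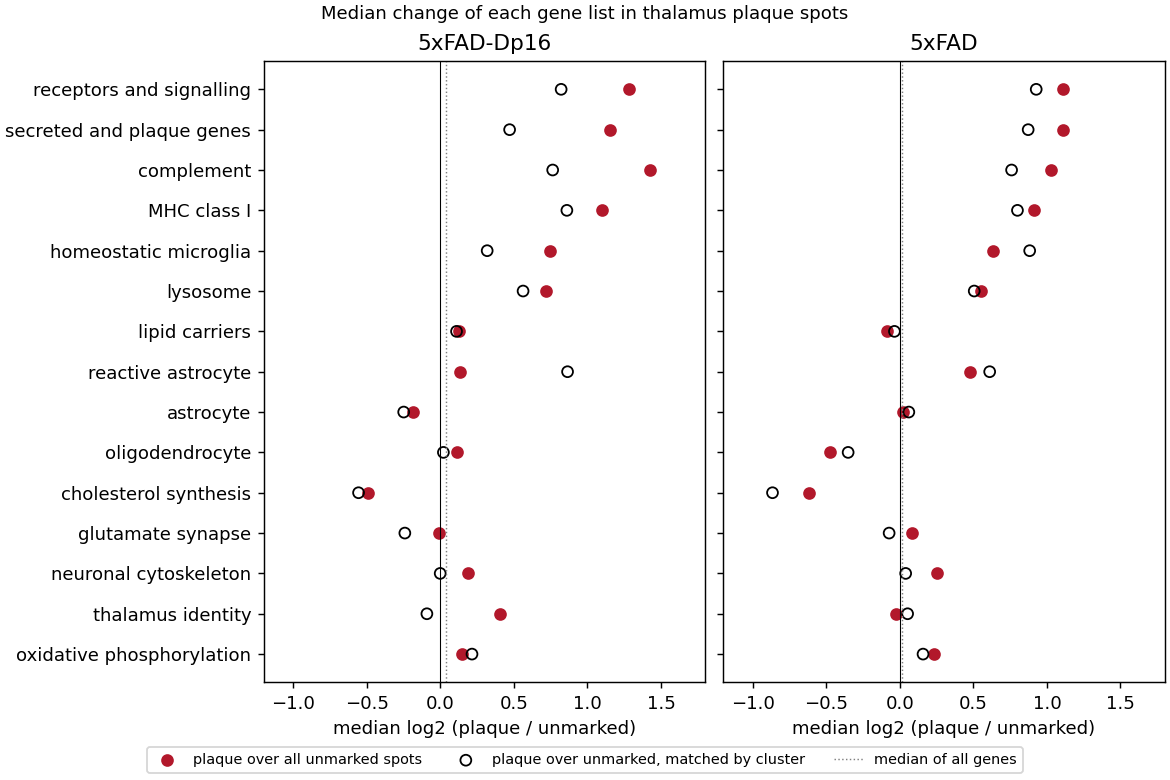
Median log2 ratio of plaque over unmarked thalamus spots (horizontal axis) for 15 gene lists in 5xFAD-Dp16 and 5xFAD, over all unmarked spots (filled) and over unmarked spots weighted to the cluster mix of plaque spots (open); the dotted line is the median of all genes. The microglial lists lie to the right and cholesterol synthesis to the left in both sections, and the oligodendrocyte list lies at 0.12 and -0.47.

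Gfap, the intermediate filament of reactive astrocytes, was higher in plaque spots of both sections. It had 242 CPM in plaque, 132 in neighbour and 66.7 in unmarked spots of 5xFAD-Dp16 (log2 1.86, 1.55 to 2.17), against 27.6 in Dp16, and 362, 229 and 135 CPM in 5xFAD (1.43, 1.17 to 1.68), against 39.5 in Wild-type. Matched by cluster it had 1.39 and 1.35, and within cluster 1 alone 1.97 and 0.58. Serpina3n, a secreted serine protease inhibitor of reactive astrocytes whose gene lies in a cluster of close paralogs, had 132 CPM in plaque and 40.8 in unmarked spots of 5xFAD-Dp16 (1.70), and 141 and 66.0 CPM in 5xFAD (1.09), with matched ratios of 0.86 and 1.08. Within cluster 1 alone Serpina3n had 1.52 and 0.39, and the plaque spot with its highest count held 22.3% of its plaque UMIs in 5xFAD. Gfap and Serpina3n were the 2 of 7 measured members of the reactive list that were higher in both sections, and the list medians were 0.13 and 0.48 (0.86 and 0.61 matched). Amigo2, an adhesion molecule on the same list that neurons also express, was lower, at -1.41 and -1.57.

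Of 23 general astrocyte markers none was higher in either section and 1 was lower in both. Of all genes, 7.34% were higher in 5xFAD-Dp16, 5.5% were higher in 5xFAD and 1.92% were lower in both. In a list of this size such counts lie near those shares. The list medians were -0.19 and 0.020. The marker lower in both was the glutamate transporter Slc1a3, with 90.9 CPM in plaque, 112 in neighbour and 186 in unmarked spots of 5xFAD-Dp16 (-1.04, -1.42 to -0.67), and 84.7, 120 and 160 CPM in 5xFAD (-0.92, -1.34 to -0.52). When matched by cluster it had -0.97 and -0.72. Apoe, the main apolipoprotein of the brain, was among the most abundant genes and was modestly higher, at 3153 CPM in plaque and 2267 in unmarked spots of 5xFAD-Dp16 (0.48, 0.41 to 0.54), and 3402 and 2665 CPM in 5xFAD (0.35, 0.28 to 0.42). Clu, the apolipoprotein clusterin, had -0.14 and 0.22, and Pltp, the phospholipid transfer protein, was the lipid carrier lower in both, at -0.91 and -0.64. The lipid carrier list as a whole had medians of 0.13 and -0.089.

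Some cholesterol synthesis genes were lower in plaque spots of both sections. Of 19 listed genes 14 passed the minimum, none was higher, 5 were lower in 5xFAD-Dp16, 7 in 5xFAD and 4 in both. The medians were -0.49 and -0.62, and -0.56 and -0.86 when matched. In cluster 1 alone they were -0.95 and -0.27. Sqle, squalene epoxidase, had 20.04 CPM in plaque, 29.9 in neighbour and 48.3 in unmarked spots of 5xFAD-Dp16 (-1.27, -2.15 to -0.49), and 24.6, 31.0 and 44.3 CPM in 5xFAD (-0.85, -1.67 to -0.10). Fdft1, squalene synthase, had 54.8 and 94.4 CPM in plaque and unmarked spots of 5xFAD-Dp16, and 49.2 and 100.3 CPM in 5xFAD. Msmo1, an enzyme of late sterol synthesis, was also lower in both (-0.74 and -0.67). Srebf2, the transcription factor that drives the pathway, had -0.69 and -0.57, while Mvd, mevalonate diphosphate decarboxylase, had 0.53 and -0.28. Summed over the list, plaque spots had 685 CPM and unmarked spots 985 in 5xFAD-Dp16, against 925 in Dp16. In 5xFAD the sums were 642 and 974 CPM, against 984 in Wild-type, so unmarked spots lay near the control sections and plaque spots below them.

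Myelin genes did not share a direction. The 26 measured oligodendrocyte genes had medians of 0.12 in 5xFAD-Dp16 and -0.47 in 5xFAD, with none past the fold in the first section and 7 lower in the second. Mbp, myelin basic protein, had log2 ratios of 0.07 and -0.29. Within cluster 1 the list medians were 0.23 and 0.13, of the opposite sign to that over all spots in 5xFAD. Cluster 3, led by Mog and Mal, held no plaque spot in either section and 5 unmarked spots in 5xFAD-Dp16 and 11 in 5xFAD. The precursor list (5 measured) had medians of -0.11 and -0.52.

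Leading genes of clusters 17 and 4 were among the genes with the most extreme ratios. Ctxn3, a cortexin family gene and the leading gene of cluster 17, had 286 CPM in plaque, 203 in neighbour and 86.9 in unmarked spots of 5xFAD-Dp16, against 101 in Dp16, and 539, 232 and 99.2 CPM in 5xFAD, against 5.99 in Wild-type. The log2 ratios were 1.72 and 2.44 over all spots, 0.30 and 1.14 when matched, and -2.51 and -0.81 within cluster 1. Cbln1, a secreted synapse organiser, had 1.55 and 1.94 over all spots and -2.16 and 0.42 within cluster 1. Lypd6 (2.09 and 2.15) and Lypd6b (1.48 and 1.81), which belong to a family of nicotinic receptor modulators, were likewise leading genes of cluster 17. Their matched ratios stayed positive, at 0.88 and 0.94 for Lypd6 and 0.31 and 0.57 for Lypd6b. Within cluster 1 Lypd6 had 3.296 and 0.19, and Lypd6b had 0.51 in 5xFAD and too few UMIs for a ratio in 5xFAD-Dp16. The share of plaque spots in cluster 17 moves with these genes, and its part in their ratios was not tested beyond the matched and cluster 1 values. The cluster 1 values of these genes have no intervals or counts here, and they may rest on few UMIs.

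Several of the lowest genes were leading genes of cluster 4. Pth2, the neuropeptide TIP39, had 1.34 CPM (1 UMI) in plaque and 97.4 in unmarked spots of 5xFAD-Dp16, and no UMI in plaque against 63.8 CPM in unmarked spots of 5xFAD, at least 15.6-fold lower when 0 is set to 3 counts per sum. Calb2, the calcium-binding protein calretinin, had 69.5 CPM in plaque, 132 in neighbour and 380 in unmarked spots of 5xFAD-Dp16 (-2.45, -2.88 to -2.05), and 58.7, 138 and 525 CPM in 5xFAD (-3.16, -3.64 to -2.72). Calb2 kept its sign when matched (-2.39 and -2.50) and within cluster 1 (-5.20 and -2.08). The calcium-binding Necab1 also did, with 21.4 and 86.5 CPM in plaque and unmarked spots of 5xFAD-Dp16 and 19.1 and 78.1 CPM in 5xFAD, and matched values of -2.67 and -2.37. The other lowest genes were Gng8, Ngb, Tac1, Sst, Hpcal1, Baiap3 and AW551984, of which AW551984 had 0.015 in 5xFAD-Dp16 when matched and Hpcal1 had 1.30 there within cluster 1. Matched values of Gng8 were -0.37 and -2.88 and those of Sst -0.85 and -2.32. Pth2 had 1.45 CPM in plaque and 0.54 in matched unmarked spots of 5xFAD-Dp16, and 0 and 23.2 CPM in 5xFAD. Habenula markers were lower, with the 3 measured members lower in both sections and summed levels of 26.7 CPM in plaque and 86.9 in unmarked spots of 5xFAD-Dp16, and 25.9 and 366 CPM in 5xFAD, where 8 unmarked spots and no plaque spot belonged to cluster 21, led by Tac2.

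Parvalbumin, neurofilament and several channel genes were higher in plaque than in unmarked spots. Parvalbumin, Nefm and the channel genes summed over their list did not exceed both control sections. Pvalb, the calcium buffer parvalbumin, had 232 CPM in plaque, 177 in neighbour and 58.4 in unmarked spots of 5xFAD-Dp16 (1.99, 1.67 to 2.31), against 191 in Dp16. In 5xFAD it had 221, 193 and 81.8 CPM (1.44, 1.11 to 1.76), against 658 in Wild-type. Within cluster 1 its ratios were 2.24 and 1.56, as large as over all spots. Cluster 10, led by Six3 and Gad1, had 3546 CPM of Pvalb against 218 outside it. It held 7.75% of thalamus spots in Wild-type, against 1.54% of plaque and 1.03% of unmarked spots in 5xFAD. Its part in the Wild-type level of Pvalb was not tested. Over all spots, Pvalb in plaque spots of 5xFAD lay above unmarked spots and below Wild-type. The neurofilament genes Nefm (1.25 and 1.014), Nefh (1.33 and 0.90) and Nefl (0.66 and 0.61) showed the same pattern, Nefm having 234 CPM in plaque and 98.5 in unmarked spots of 5xFAD-Dp16 against 156 in Dp16, and 238 and 118 CPM in 5xFAD against 273 in Wild-type. They were the 3 of 20 cytoskeletal genes higher in both sections (list medians 0.19 and 0.25). Of 13 measured channel genes 3 were higher in both sections, where 1.99% of all genes were. Among them was the sodium channel subunit Scn4b (0.92 and 1.11, and 0.49 and 1.18 when matched), from 27 and 30 plaque UMIs. Summed over the channel list, plaque spots had 2137 CPM in 5xFAD-Dp16 against 1733 in Dp16, and 2010 CPM in 5xFAD against 2661 in Wild-type.

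Thalamus identity genes had medians of 0.41 and -0.024 over 23 measured members, and -0.092 and 0.053 when matched. Tcf7l2 was lower in plaque spots of both sections, at 306 CPM against 415 in unmarked spots of 5xFAD-Dp16 (-0.44, -0.65 to -0.23) and 325 against 450 CPM in 5xFAD (-0.47, -0.68 to -0.26). Prkcd was higher, at 861 and 497 CPM in 5xFAD-Dp16 (0.79) and 772 and 690 CPM in 5xFAD (0.16), and within cluster 1 it had 0.15 and 0.06. The vesicular glutamate transporter Slc17a6, which marks relay neurons, had -0.02 and 0.11. Glutamate synapse genes had medians of -0.011 and 0.082, with Snap25, the presynaptic SNARE protein, higher (0.64 and 0.59) and Syn2, a synaptic vesicle phosphoprotein, lower in both (-0.90 and -0.79). Inhibitory neuron genes had medians of -0.24 and -0.12 and immediate early genes -0.12 and -0.13. Thy1, whose promoter drives the transgenes in neurons, had 0.30 and 0.33, and App had 0.31 and 0.12, with reads of the human transgene not separated here. None of 38 oxidative phosphorylation genes passed the fold, with medians of 0.15 and 0.23, and stress and unfolded protein genes (14 measured) had 0.064 and 0.071.

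Markers of other cells that a spot could hold were mostly level or rested on single spots. Haemoglobin transcripts, which red blood cells carry and whose genes have near-identical copies, had a list median of 0.69 in 5xFAD-Dp16 and 2.21 in 5xFAD. In 5xFAD 1 plaque spot of cluster 10 held 78.4% of the plaque UMIs of Hba-a1, whose ratio was 2.25 with that spot and 0.06 without it. Mgp, a matrix protein of vessel walls and meninges, had 1.82 in 5xFAD-Dp16 and 0.51 in 5xFAD, and 1 plaque spot of cluster 12 held 68.0% of its plaque UMIs in 5xFAD-Dp16, without which the ratio was 0.19. Ttr, the choroid plexus transthyretin, had 198 CPM in plaque and 1462 in unmarked spots of 5xFAD-Dp16 (-2.89), where 12 unmarked spots and no plaque spot were in cluster 13, and 0.40 in 5xFAD. Matched by cluster it had -0.32 and 0.11.

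The endothelial list (7 measured) had medians of 0.15 and -0.13, the mural list (2) -0.018 and -0.20 and the meningeal list (3) 0.011 and -0.23. Border macrophage markers summed to 12.03 CPM in plaque and 12.7 in unmarked spots of 5xFAD-Dp16, and 9.56 and 19.5 CPM in 5xFAD, and 3 and 4 of the 7 were at 0 in plaque spots, Lyve1, Cd163 and F13a1 in both sections. Among the 11 T and B cell genes in the matrix 6 and 8 were at 0 in plaque spots, Cd3e, Cd3d, Cd4 and Cd8a in both. The exception was Ighm, the immunoglobulin heavy chain, with 46.8 CPM in plaque and 25.5 in unmarked spots of 5xFAD-Dp16 (0.88, 0.25 to 1.49), and 50.5 and 15.3 CPM in 5xFAD (1.72, 0.98 to 2.48). Markers of regions next to the thalamus had medians of 0.032 and -0.10 for cortex (7 measured), 0.13 and -0.55 for hippocampus (3) and -0.25 and -0.36 for striatum (4), and Hap1, the hypothalamus marker that passed the minimum, had -1.55 and -1.92.

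Neighbour spots lay between plaque and unmarked spots for most genes that differed. Compared with unmarked spots, 226 genes (3.49%) were higher and 285 (4.41%) lower in neighbour spots of 5xFAD-Dp16, and 161 (2.49%) and 228 (3.53%) in 5xFAD, of which 35 (0.541%) and 64 (0.99%) were shared by the sections. Of the 129 genes higher in plaque spots of both sections, 109 (84.5%) had neighbour levels between plaque and unmarked in both, as had 86 of the 124 lower genes (69.4%), against 1264 of all 6467 genes (19.5%). The 129 and 124 genes were chosen by the plaque and unmarked levels, which lie on either side, so these counts describe the order only. Median ratios of neighbour over unmarked spots were 0.74 and 0.49 for receptors and signalling, 0.33 and 0.26 for lysosomal genes, and -0.57 and -0.40 for cholesterol synthesis.

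Unmarked spots lay above the control sections in the summed levels of microglial receptors and of complement. Summed over the receptor and signalling list, plaque spots had 2765 CPM and unmarked spots 990 in 5xFAD-Dp16, against 577 in Dp16, and the 5xFAD sums were 2795 and 1327 CPM, against 566 in Wild-type. For complement the sums were 1613 CPM in plaque and 578 in unmarked spots of 5xFAD-Dp16 against 340 in Dp16, and 1635 and 738 CPM in 5xFAD against 320 in Wild-type. The plaque sums of the 2 transgenic sections thus differed by less than their unmarked sums. Chemokines summed to 514 CPM in plaque and 385 in unmarked spots of 5xFAD-Dp16 against 332 in Dp16, and to 545 and 460 CPM in 5xFAD against 462 in Wild-type, where unmarked spots and the control section were about level. The neuronal Cx3cl1 was a large part of these sums. In the clusters used for matching it had 255 CPM in plaque and 330 in unmarked spots of 5xFAD-Dp16, and 312 and 317 CPM in 5xFAD. The sums therefore cannot show the level of microglial chemokines.

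The plaque over unmarked ratio of several microglial genes differed between the sections. That of Trem2 was higher in 5xFAD-Dp16 by 0.82 (0.43 to 1.22), that of Cst7 by 0.76 (0.29 to 1.22) and that of Ctsd by 0.53 (0.38 to 0.67). Over all unmarked spots the levels of all 3 were lower in 5xFAD-Dp16, while the plaque levels lay closer together on the log2 scale. Weighted to the cluster mix of plaque spots, unmarked levels of Cst7 were 101 CPM in 5xFAD-Dp16 and 90.7 in 5xFAD. Those of Ctsd were 1094 and 1013 CPM and those of Trem2 135 and 146 CPM, so the lower unmarked level of Cst7 and Ctsd did not hold when matched. Matched by cluster the ratios lay closer, at 1.26 in 5xFAD-Dp16 and 1.09 in 5xFAD for Trem2, 0.89 and 0.78 for Ctsd, and 1.69 and 1.90 for Cst7, whose difference turned to -0.21. Among genes of at least 50 CPM the highest differences were those of Cacnb3, a calcium channel subunit (1.602, 0.83 to 2.37), Cox6a2, a cytochrome oxidase subunit (1.52, 0.94 to 2.10), and Mgp (1.30), and the lowest those of Ttr (-3.28), Itih3, an inter-alpha-trypsin inhibitor chain (-2.28, -3.36 to -1.198), and Hbb-bt (-1.90). Matched ratios were -0.34 in 5xFAD-Dp16 and -0.50 in 5xFAD for Cacnb3, 0.32 and -0.65 for Cox6a2, 1.77 and 1.04 for Mgp and -0.32 and 0.11 for Ttr. Without the plaque spot with its highest count, Mgp had 0.19 and 0.00. That spot held 68.0% of its plaque UMIs in 5xFAD-Dp16 and 31.25% in 5xFAD. Itih3 had 12.03 CPM in plaque, 33.9 in neighbour and 63.3 in unmarked spots of 5xFAD-Dp16 against 62.8, 44.6 and 68.1 CPM in 5xFAD, and its matched log2 ratios were -2.21 and -0.17. With 1 section per genotype, a difference between genotypes and one between these sections cannot be told apart.

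The same contrast was made in other regions of the same sections that held at least 10 plaque and 10 unmarked spots. Neocortex pools all labels of the isocortex. Receptors and signalling had medians of 1.28 in thalamus against 0.95 in hippocampus, 0.91 in neocortex, 0.96 in the label FB and 1.63 in hypothalamus of 5xFAD-Dp16, and 1.11 against 0.92, 1.17, 1.06 and 1.96 in 5xFAD. Cholesterol synthesis had -0.49 in thalamus against 0.27 in hippocampus, 0.20 in neocortex and 0.10 in FB of 5xFAD-Dp16, and -0.62 against 0.38, 0.11 and 0.46 in 5xFAD. Hypothalamus had -0.47 and -0.67, as negative as thalamus. These medians were set side by side with no test, and clusters were not matched in the other regions.

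Slc1a3 had -1.04 in thalamus against -0.03 in hippocampus, -0.55 in neocortex and 0.61 in FB of 5xFAD-Dp16, and -0.92 against -0.07, -0.08 and 0.72 in 5xFAD, and in hypothalamus -0.67 and -0.39. Nefm had 1.25 against -0.66, 0.25 and -0.75 in 5xFAD-Dp16, and 1.014 against -0.21, 0.20 and -0.91 in 5xFAD. For Nefm the counting intervals of thalamus minus region excluded 0 for hippocampus (1.28 to 2.53 and 0.30 to 2.14), neocortex (0.65 to 1.34 and 0.41 to 1.22) and FB (0.75 to 3.25 and 0.89 to 2.96). In hypothalamus Nefm had 1.69 and 0.67, and thalamus minus hypothalamus was -0.45 (-0.84 to -0.051) in 5xFAD-Dp16 and 0.35 (-0.044 to 0.74) in 5xFAD. Spp1 had 2.75 in thalamus against -0.40 in neocortex of 5xFAD-Dp16, and 2.54 against 1.02 in 5xFAD, while hypothalamus had 1.81 and 2.47. Of the 129 genes higher in thalamus, 53 were also past the fold in hippocampus, 44 in neocortex, 77 in FB and 69 in hypothalamus of 5xFAD-Dp16, where 11.3, 4.42, 16.6 and 7.36% of all genes were, and 51, 62, 68 and 72 in 5xFAD, where 14.5, 6.02, 18.7 and 5.81% were. Their median log2 ratio in hypothalamus was 0.65 in 5xFAD-Dp16 and 0.67 in 5xFAD. Hippocampus held only 49 plaque spots in 5xFAD-Dp16 and 13 in 5xFAD, so single genes there rest on few spots.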

How the data were processed

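Raw UMI counts of 19090 genes in 10549 spots were deposited, made with Space Ranger and Seurat on mm10 per the submitters' processing notes. Neither versions nor the way spots were given regions, clusters and marks were stated. The percent of mitochondrial UMIs per spot was deposited by the authors. Every deposited spot was kept and no doublet caller was run.

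Counts were summed over the spots of each kind in each section and scaled to CPM. Intervals at 95% are Clopper-Pearson ones, conditional on the summed count, for ratios, and exact Poisson ones for levels. These take UMIs as independent and cover neither spots nor animals. A sum of 0 was set to 3 counts, and no fold was given where both sums were at or below 3. Genes averaging at least 20 CPM over the 4 sums were compared, and called past 1.5-fold. Matched values use clusters holding at least 5 plaque and 5 unmarked spots, with unmarked spots weighted by the plaque share of UMIs. Shares and spot sums were thinned to 5300 UMIs, which left out 7 plaque and 22 unmarked spots in 5xFAD-Dp16 and 1 and 10 in 5xFAD. Neighbouring spots share tissue. Genes with near-identical copies (haemoglobins, C4b, class I genes, Serpina3n) are uncertain, since the counting could split their reads.

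Members and gene lists were chosen with earlier results of these data known. Genes were named by rule: the 15 highest and 10 lowest over both sections, the 3 most abundant and the extreme members of each list, a fixed set, and the 3 highest and 3 lowest by difference between sections. Others were named after their values were seen, among them Ccl3, Cd52, Csf1r, Ctss, Ctsz, Cx3cr1, Fcer1g, Fdft1, Igf1, Ly86, Msmo1, Nefh, Nefl, Selplg and Tgfbr2. Some items are not reported here. Scripts were tested on simulated data. Tools were Python 3.11.15, numpy 2.4.6, pandas 2.3.3, scipy 1.17.1, R 4.3.3 and edgeR 4.0.16, the last only for TMM factors.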

Additional observations from a re-analysis of the deposited data

How the results depend on the processing

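How far gene and list results held depended on the setting. Of the alternative values of single genes, 2316 kept their size, 336 moved and 20 reversed, and of those of lists 694 kept it, 86 moved and 3 reversed. Most of the single-gene changes came from 2 settings. Matched by cluster, 179 values kept their size, 114 moved and 4 reversed, and in cluster 1 alone 130 kept it, 138 moved and 16 reversed, while with TMM factors all 300 kept it. The cause of each change was not tested, except that other minimums and folds change the number of genes counted. Scaling by TMM factors, or without haemoglobin, mitochondrial and ribosomal protein genes, moved the median of all genes by less than the 0.1 at which a shift would be reported here.

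Genes higher in 5xFAD-Dp16 numbered 312 against all spots without the plaque mark, 747 in cluster 1 alone, 1202 with a minimum of 5 CPM (10879 genes), 177 with 50 CPM (3263 genes), 1650 with none (17248 genes) and 104 at 2-fold. Those lower numbered 615 matched by cluster, and 1153, 1477, 112, 2155 and 119 in the same order from cluster 1 on. In 5xFAD that order gave 566, 1088, 135, 1399 and 86 higher, and 942, 1619, 121, 2366 and 121 lower. Shared by both sections were 326 higher at 5 CPM, 72 at 50 CPM, 385 with no minimum and 39 at 2-fold, and 484, 48, 685 and 38 lower, with 298 lower in cluster 1.

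Among the lists of the main comparisons, the medians that moved were complement in 5xFAD-Dp16 (0.76 matched), oligodendrocyte in 5xFAD-Dp16 (0.021 against all spots without the plaque mark and 0.021 matched) and in 5xFAD (0.13 in cluster 1), and thalamus identity in 5xFAD-Dp16 (-0.092 matched, -0.13 in cluster 1). Other lists moved too, such as cholesterol synthesis in 5xFAD (-0.86 matched) and choroid plexus in 5xFAD-Dp16 (-0.21 matched). The reactive astrocyte (0.86) and chemokine (0.44) medians in 5xFAD-Dp16 changed when matched by less than the spread of their members. The blood list turned to -0.38 in cluster 1 of 5xFAD, and with no minimum the T and B cell list turned to -0.83 in 5xFAD-Dp16 and -0.37 in 5xFAD.

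When matched, the log2 ratios of AW551984 (0.015), Rprm (-0.21) and Tmem119 (-0.031) reversed in 5xFAD-Dp16 and that of C1ql1 (0.37) in 5xFAD. Within cluster 1, chosen after seeing the data, those of Cbln1 (-2.16), Cd59a (-1.40), Ctxn3 (-2.51), Gabra4 (-0.13), Hpcal1 (1.30) and Rprm (-2.03) reversed in 5xFAD-Dp16. There, in 5xFAD, Amigo2 (0.34), C1ql1 (0.25), Cd59a (-0.39), Ctxn3 (-0.81), Fos (0.055), Hba-a1 (-0.70), Hba-a2 (-0.41), Hbb-bs (-0.34), Hbb-bt (-0.31) and Lhfpl3 (-0.88) did. No interval is given for cluster 1 ratios, and some rest on few UMIs. Fos had 7 and Amigo2 10 UMIs in all plaque spots of 5xFAD. Differences between sections that reversed when matched were those of Cst7 (-0.21), Hbb-bt (0.65), Prkcd (-0.035), Serpina3n (-0.22) and Tmem119 (-0.17).

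Matching by the finer region label was not run, since it does not divide the thalamus. No paired analysis was possible because each genotype has 1 section and no test was made. Genes of few UMIs, such as Itgax, P2ry12 and Wfdc17, are limited by depth.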
